A study of Mus musculus with 4 samples.

Results

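Distal CTCF sites with cohesin are places away from gene starts where CTCF and the cohesin subunit RAD21 were both found in developing mouse limbs. They were taken as the autosomal peaks of CTCF replicate 1 that overlapped by at least 1 bp a peak of CTCF replicate 2, of RAD21 replicate 2 and of wild-type RAD21. The summit, the highest point of the peak, had to lie more than 1 kb from every protein-coding gene start, and under 50% of the peak could be soft-masked, that is, marked as repeat sequence. Of 23433 autosomal CTCF replicate 1 peaks, 20866 overlapped a CTCF replicate 2 peak, 11834 of these a RAD21 replicate 2 peak, and 11399 also a wild-type RAD21 peak. The distance rule left 10769 and the repeat rule 10520 sites. The sites were therefore chosen by 4 of the 5 peak lists, and values in those lists are given below as a description.

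The study asked whether region CS38-40 of the HoxD locus, a border between sub-domains of chromatin contacts, can work as a border elsewhere in the genome. CTCF and RAD21 were profiled in whole limbs of B6CBAF1 embryos at E12.5 by ChIPmentation, in which immunoprecipitated chromatin is cut and tagged by the Tn5 transposase on the beads. All these embryos were TgN(38-40)/Wt; del(CS38-40)-/-, so they carried the relocated region CS38-40 on one copy of chromosome 10 and lacked it on both copies of chromosome 2. Each antibody had 2 replicate peak lists, and the wild-type RAD21 list came from a ChIP-seq library of an earlier study, with no replicate list. Whole limbs hold many cell types, so a low fold can mean few cells with a bound site or weak binding in most, and these cannot be told apart. TgN(38-40) comes from one transgenic line with a single integration site, so what belongs to the genotype, to the line and to the protocol cannot be separated from the wild-type list.

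CTCF is a zinc finger protein that binds an asymmetric DNA motif, so each bound site points one way along the chromosome. Cohesin is a ring-shaped complex that extrudes DNA loops and is held up at bound CTCF, mainly when it arrives from the side to which the motif points. Pairs of CTCF sites whose motifs point at each other, called convergent, are known to anchor many loops and the borders of contact domains.

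The learned CTCF motif of 19 bp, read 5′ to 3′ on its G-rich strand, had the consensus TGGCCACCAGGGGGCGCTG. It was learned from 2000 strong CTCF replicate 2 peaks outside the sites described here. The reference sequences below (GRCm38, the assembly of mm10) show the motif in capitals within the 5 sites of highest mean fold rank over the 4 lists that had a motif within 100 bp of the summit. They are shown because they are the most enriched sites and because their motifs differ from the consensus.
chr13:13889616-13889714, plus strand, 64796 bp from the B3galnt2 start: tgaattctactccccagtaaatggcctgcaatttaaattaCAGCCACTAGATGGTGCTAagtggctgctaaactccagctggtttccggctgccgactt
chr7:137478430-137478528, plus strand, 40792 bp from the Glrx3 start: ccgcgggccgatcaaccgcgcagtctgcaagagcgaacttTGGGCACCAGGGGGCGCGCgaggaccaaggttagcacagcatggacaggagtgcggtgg
chr11:62613793-62613891, plus strand, in an intron 34661 bp from the Lrrc75a start: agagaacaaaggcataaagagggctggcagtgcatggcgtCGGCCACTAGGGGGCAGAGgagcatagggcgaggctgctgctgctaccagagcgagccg
chr13:9846964-9847062, minus strand, 81641 bp from the Zmynd11 start: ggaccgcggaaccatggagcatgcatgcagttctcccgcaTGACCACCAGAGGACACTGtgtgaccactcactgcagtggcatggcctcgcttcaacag
chr2:109904283-109904381, plus strand, 13311 bp from the Lgr4 start: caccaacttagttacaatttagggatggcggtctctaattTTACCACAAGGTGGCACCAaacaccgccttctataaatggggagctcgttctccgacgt

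The closest matches to the consensus were not among the most enriched sites. The 3 sites of highest motif score are shown with 20 bp on either side, for comparison with the enriched sites above.
chr8:120078210-120078268, minus strand, in an intron 23204 bp from the Zdhhc7 start: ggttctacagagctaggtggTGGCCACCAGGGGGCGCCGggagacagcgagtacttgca
chr5:28094109-28094167, minus strand, 22764 bp from the Insig1 start: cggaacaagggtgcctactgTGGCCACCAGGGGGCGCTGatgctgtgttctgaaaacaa
chr5:135616222-135616280, plus strand, 16374 bp from the Rhbdd2 start: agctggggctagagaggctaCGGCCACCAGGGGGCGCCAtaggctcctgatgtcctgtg

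The fold of a peak is its signal at the summit over the local expectation, as computed by the authors' peak caller, and folds were read only within a list. Over the 10520 sites the fold had a median of 7.27 in CTCF replicate 1, with a lowest value of 2.44 and a highest of 21.93. In CTCF replicate 2 the median was 9.21 (2.30 to 21.08). In RAD21 replicate 2 it was 7.88 (2.23 to 19.56) and in the wild-type RAD21 list 6.29 (2.1 to 13.69). The sites lay above the middle of each list, at a median percentile of 64.0 in CTCF replicate 1, 68.6 in CTCF replicate 2, 58.4 in RAD21 replicate 2 and 71.2 in wild-type RAD21. Peak widths had medians of 335, 309, 309 and 387 bp in the same order.

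The whole lists differed in size. CTCF replicates 1 and 2 held 23829 and 26264 peaks, RAD21 replicates 1 and 2 held 4102 and 14787, and the wild-type RAD21 list held 20874. The sites overlapped 84.4% of the autosomal RAD21 replicate 1 peaks, 72.6% of those of RAD21 replicate 2, 51.4% of wild-type RAD21 and 44.9% and 40.8% of CTCF replicates 1 and 2. They thus held most of the cohesin peaks of the transgenic limbs but fewer than 50% of the CTCF peaks. The numbers of reads are not given in the sources used here, and a peak missing from a list is a site under the threshold of that list, not an unbound site.

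**Figure D1:**
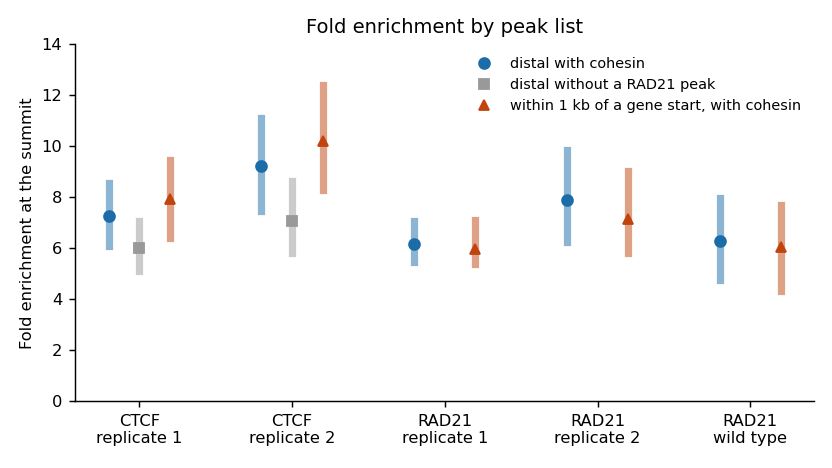
Fold enrichment at the summit in each peak list for the distal CTCF sites with cohesin, distal CTCF sites without a RAD21 peak and CTCF sites with cohesin within 1 kb of a gene start. Points are medians and bars run from the lower to the upper quartile over sites, and the distal sites with cohesin have CTCF medians of 7.27 and 9.21, against 6.01 and 7.06 at distal sites without a RAD21 peak.

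Within the sites, the antibodies ranked the members differently. The Spearman correlation of folds across the 10520 sites was 0.60 between the CTCF replicates and 0.74 between RAD21 replicate 2 and wild-type RAD21. Between a CTCF and a RAD21 list it was 0.24 to 0.28. These are descriptions over sites that share a library, local chromatin and base composition, and carry no test. At distal CTCF sites without a RAD21 peak in any of the 3 RAD21 lists (4261 sites, chosen otherwise by the same rules), the CTCF folds were lower, with medians of 6.01 and 7.06. The 618 CTCF sites with cohesin within 1 kb of a gene start had CTCF medians of 7.94 and 10.2, RAD21 replicate 2 at 7.15 and wild-type RAD21 at 6.04.

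The site of highest mean rank, on chromosome 13 from 13889272 to 13889821, lies in a long non-coding RNA gene. Its folds were 15.72 and 19.08 in the CTCF replicates, 8.42 and 15.63 in RAD21 replicates 1 and 2, and 12.03 in wild-type RAD21. The next, near Glrx3 (a glutaredoxin), had CTCF folds of 14.01 and 21.08 and RAD21 folds of 8.63, 14.63 and 12.62 in replicate 1, replicate 2 and wild type. Near Lrrc75a they were 12.66 and 18.21 for CTCF and 9.37, 15.28 and 12.66 for RAD21. All 10 sites of highest mean rank had a RAD21 replicate 1 peak, with folds from 6.90 to 14.89. This peak was at 32.4% of all the sites and 16.0% of all autosomal CTCF replicate 1 peaks. The mean rank includes RAD21 replicate 2 and wild-type RAD21, and it was at 73.9% and 78.9% of the sites in their highest fold classes. The count is therefore no independent support for these sites. The site in an intron of Brox (chr1:183299103-183299592) and the one 505238 bp from Irx1 (chr13:71458310-71458807) had no CTCF motif within 100 bp of the summit, although their CTCF folds were 17.49 and 16.99, and 13.02 and 17.43.

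The 5 sites of lowest mean rank lay together, within the 100 kb stretch that held the most sites. The 6 sites of this stretch, on chromosome 17 between 39843045 and 39848757, lie in genes annotated as long non-coding RNA. The starts of Gm26917, AY036118 and Gm42418 are nearest. Of these 6, 2 lie over the annotated ribosomal RNA gene CT010467.1, from 39846353 to 39848827, and whether the rest hold ribosomal RNA sequence was not tested. The folds of the 6 sites were 2.44 to 2.89 in CTCF replicate 1, 2.30 to 3.26 in CTCF replicate 2 and 2.23 to 2.86 in RAD21 replicate 1. They were 2.23 to 2.91 in RAD21 replicate 2 and 2.14 to 2.36 in wild-type RAD21. All 6 had a RAD21 replicate 1 peak, and 1 of them had a motif within 100 bp. Ribosomal RNA genes are present in many near-identical copies, and how reads of such copies were placed here was not tested. The stretch holds 6 of the 10520 sites.

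At the limits of the rule, the sites just inside 1 kb lay 1001 bp from Tldc1 and 1002 bp from Gadd45g. Just outside, sites lay 1000 bp from Apob and from Socs1. The RAD21 replicate 2 folds were 7.09 and 4.41 inside, and 9.09 and 6.2 outside. For repeat sequence, the nearest sites inside, near Adora2a and Sh3bp4, were 49.8% masked, and those outside, near Olfr1375 and Hook1, were 50.0% masked.

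RAD21 replicate 1 was the list that the choice did not use, and it found cohesin mainly at the sites with the strongest RAD21 elsewhere. Of the 10520 sites, 3408 (32.4%) overlapped a RAD21 replicate 1 peak, against a background of 16.0% over all 23433 autosomal CTCF replicate 1 peaks. The share ran from 29.0% to 37.9% over the 19 autosomes (SD 2.40). Among distal CTCF sites that had a wild-type RAD21 peak but none in RAD21 replicate 2, 41 of 2592 (1.58%) had a RAD21 replicate 1 peak. Among those with RAD21 replicate 2 but no wild-type RAD21, it was 5 of 332 (1.51%). The lowest autosome of the sites with both lists was thus above either of these shares. CTCF sites with cohesin within 1 kb of a gene start had a share of 26.5%, with autosomes from 12% to 42.1%, a range that overlapped that of the distal sites. Peaks are not replicates, and 2 replicates per antibody allow no test, so the spread over autosomes is given for scale.

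The share with a RAD21 replicate 1 peak followed the RAD21 folds far more than those of CTCF. Over 5 classes of equal size, from the lowest to the highest RAD21 replicate 2 fold, it was 4.51%, 12.1%, 25.9%, 45.7% and 73.9%. By wild-type RAD21 fold it went from 2.89% in the lowest class to 78.9% in the highest. For CTCF the lowest and highest classes were 21.9% and 46.1% in replicate 1, and 22.8% and 44.6% in replicate 2. By motif score the classes stayed between 29.6% and 34.1%. Among the 3408 sites with a value, the fold in RAD21 replicate 1 had a median of 6.18 (2.23 to 25.61) and correlated with RAD21 replicate 2 and wild-type RAD21 at 0.40 and 0.43 (Spearman), and with the CTCF replicates at 0.19 and 0.17.

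**Figure D2:**
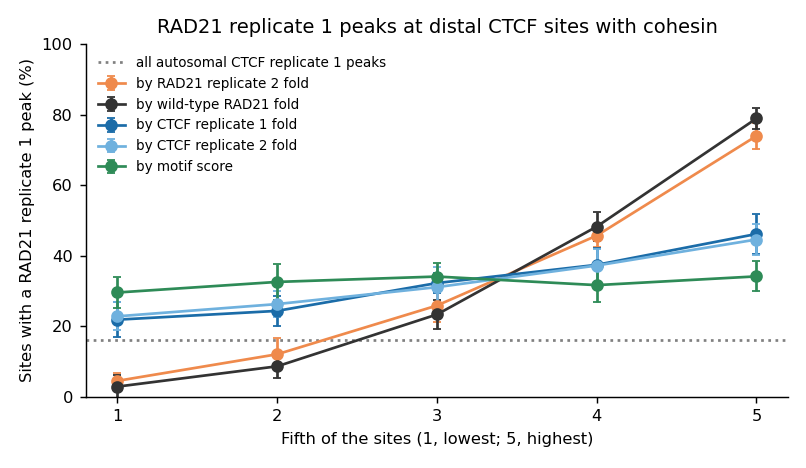
Percentage of distal CTCF sites with cohesin that overlap a RAD21 replicate 1 peak (y axis), by class of equal size by the fold in each of 4 lists or by the motif score (x axis, 1 is the lowest class). Points are shares of all sites in the class, bars are the SD over 19 autosomes and the dotted line is the 16.0% of all autosomal CTCF replicate 1 peaks, and the RAD21 lines climb to 73.9% and 78.9% while the motif line stays between 29.6% and 34.1%.

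Place in the genome went with the RAD21 replicate 1 share to a lesser degree. It was 35.0% for intergenic sites, 29.7% in introns, 23.3% in exons and 37.3% in long non-coding RNA genes. At 1 to 5 kb from a protein-coding gene start it was 24.8%, at 5 to 20 kb 28.5%, at 20 to 100 kb 35.1% and beyond that 36.1%. Sites near genes therefore had this peak less often than sites far from them, with no test of the difference.

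The CTCF motif was found at most of the sites, and the share depended on how far from the summit it was sought. A match was called at the score that 5% of flanking sequences, centred 1500 bp to either side of the summits, reach. Within 50 bp of the CTCF replicate 1 summit, 5778 sites (54.9%) had a match, against 52.4% of all autosomal CTCF replicate 1 peaks and 4.71% of the sites' own flanks. Within 100 bp it was 9023 sites (85.8%, autosomes 81.8% to 88.1%), against 81.4% of all. Within 150 bp, a window added after the data were seen, it was 91.2%. Distal sites without a RAD21 peak had 50.2% and 78.5% within 50 and 100 bp, with autosomes from 71.1% to 82.6% for the latter. The share of sites with a motif was thus close to the background, and 50.4% of the motifs were on the plus strand.

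RAD21 folds varied little with the motif, whereas median CTCF folds were lower at sites without one. The motif score within 100 bp correlated with CTCF fold at 0.15 and 0.17 in replicates 1 and 2 and with RAD21 fold at -0.03 in replicate 2 and -0.01 in wild type (Spearman, 9023 sites). The 928 sites without a motif within 150 bp had median folds of 6.54 and 8.14 in the CTCF replicates, 7.93 in RAD21 replicate 2 and 6.29 in wild-type RAD21. Sites with a motif had 7.34, 9.31, 7.88 and 6.29 in the same order. RAD21 replicate 1 peaks were on 31.4% of the sites without and 32.5% of the sites with a motif. At 664 sites (6.31%) there were 2 or more matches within 150 bp, and among 632 pairs of matches 384 ran the same way, 129 were convergent and 119 divergent. At distal sites without a RAD21 peak the share with several matches was 6.22%.

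The letters of the motif differed between the distal sites with cohesin and those without a RAD21 peak, although the letters were not used to choose the sites. In what follows, without cohesin means without a RAD21 peak in any RAD21 list, and does not mean unbound. The 7 letters at motif positions 9 to 15 (counted from 1 at the 5′ end) took 4 main forms. The form AGATGGC made up 11% of the motifs at the distal sites with cohesin, with autosomes from 6.97% to 16.9%, and 4.25% at distal sites without a RAD21 peak (1.28% to 11%). The form AGGTGGC made up 17.6% against 11.7%. The reverse held for AGGGGGC, with 14.9% (11.3% to 17.9%) with cohesin and 26.0% (20.7% to 36.1%) without. AGAGGGC stood at 18.8% and 22.0%. The AGGGGGC ranges over autosomes did not overlap, whereas those of AGATGGC did. These forms were counted among matches to the learned motif, whose consensus holds AGGGGGC. Its training peaks lay outside the distal sites with cohesin. They could include distal sites without a RAD21 peak and CTCF sites with cohesin within 1 kb of a gene start. The part of this was not tested. The shares of the forms were not recounted outside soft-masked sequence. At CTCF sites with cohesin within 1 kb of a gene start, AGGGGGC made up 21.2% and AGATGGC 5.50% of 382 motifs, nearer to the sites without a RAD21 peak for AGATGGC and between both for AGGGGGC. Of the enriched sites shown above, the Glrx3 and Lrrc75a sites hold AGGGGGC and the Lgr4 site AGGTGGC.

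A base preference 3′ of the motif was also stronger at sites with cohesin. Information, in bits, measures how far base use departs from that of the sequence around CTCF peaks, and is 0 where it does not. Summed over the positions 13 to 40 bp 3′ of the motif centre it was 0.976 bits at distal sites with cohesin and 0.363 bits at distal sites without a RAD21 peak. On the 5′ side it was 1.12 and 1.37 bits. The strongest position, 15 bp 3′ of the centre, held 0.313 and 0.0445 bits. Cytosine stood there in 51.6% of 5778 motifs with cohesin (autosomes 48.2% to 55.3%, SD 1.99) and in 34.2% of 2141 without (18.9% to 44.3%, SD 5.56), so the ranges did not overlap. At +12, guanine made up 46.4% with and 33.4% without cohesin (40.2% to 51.7% and 25.2% to 45.3%), and those ranges overlapped. Motifs touching soft-masked sequence made up 9.97% with and 21.4% without cohesin. Among motifs free of soft-masking over the motif and this flank, cytosine at +15 made up 51.8% of 5202 with cohesin and 29.8% of 1683 without.

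The difference was present in every class of CTCF replicate 2 fold, and the comparison was not made by CTCF replicate 1 fold. Among sites with a CTCF replicate 2 fold below 6, cytosine at +15 made up 52.0% of 460 motifs with cohesin and 37.1% of 582 without. At folds from 6 to 8 it was 48.7% and 30.7%, from 8 to 10 it was 49.9% and 37.2%, and at 10 or more 54.2% and 32.4%. In each of these fold classes the share was higher with cohesin. Within the sites with cohesin, cytosine at +15 was at 45.0% in the lowest and 60.1% in the highest of 5 classes of wild-type RAD21 fold, and at 45.9% and 58.7% by RAD21 replicate 2 fold. By CTCF replicate 1 fold the lowest and highest classes were 52.7% and 53.2%, and by CTCF replicate 2 fold 49.9% and 55.4%. Sites with a RAD21 replicate 1 peak, the list outside the choice, had it in 56.6% of 1946 motifs (autosomes 47.1% to 60.9%) and the others in 49.1% of 3832 (42.0% to 54.1%), and these ranges overlapped. CTCF sites with cohesin within 1 kb of a gene start had it in 54.7% of 382.

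**Figure D3:**
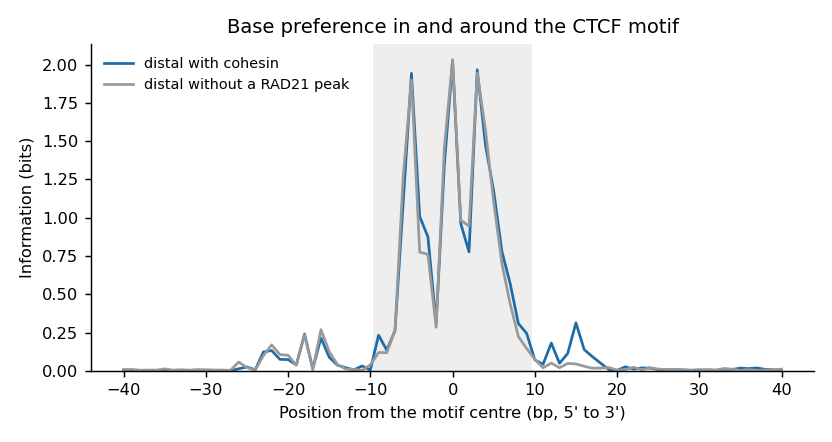
Information in bits (y axis) at each position from the centre of the CTCF motif (x axis, 5′ to 3′) at distal sites with cohesin (5778 motifs) and without a RAD21 peak (2141 motifs). The grey band is the 19 bp motif, and the lines part 3′ of it, at 15 bp, where they reach 0.313 and 0.0445 bits.

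RAD21 summits lay on the 3′ side of the motif, the side to which it points. In wild-type RAD21 the median summit was 20 bp 3′ of the motif centre, with quartiles of 14 and 27 bp, and 88.4% of 5778 summits lay on that side. Each of the 19 autosomes had a median between 19 and 21 bp. In RAD21 replicate 2 the median was 12 bp (quartiles -11 and 52), with 63.4% on the 3′ side and autosomes from 8 to 21 bp. In RAD21 replicate 1 it was 20 bp (quartiles -15 and 68) over 1946 summits, with 64.5% on the 3′ side and autosomes from 6.5 to 40 bp. Over all autosomal CTCF replicate 1 peaks with a motif the medians were also 20, 12 and 20 bp in wild type, replicate 2 and replicate 1, with 85.4%, 62.9% and 64.5% on the 3′ side, so the displacement was not particular to the sites. All 3 RAD21 lists were displaced the same way, and the ChIPmentation lists scattered more widely than the wild-type ChIP-seq list. Protocol and genotype cannot be told apart in that difference.

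CTCF summits of replicate 2 had a median of 4 bp (quartiles -13 and 32, autosomes 1 to 7), with 55.3% on the 3′ side. The range of its autosomes thus stayed below that of RAD21 replicate 2. For CTCF replicate 1 the median was 0 bp, but the motif was sought around that summit, so this value is not independent. With motifs sought within 100 bp the medians were 5 bp for CTCF replicate 2, 14 and 26 bp for RAD21 replicates 2 and 1 and 20 bp for wild-type RAD21. At CTCF sites with cohesin within 1 kb of a gene start, the wild-type RAD21 median was 19 bp, with 75.9% of 382 summits on the 3′ side and quartiles of 2 and 27 bp. The autosomes of those sites ran from 65.0% to 93.3% on the 3′ side, which overlapped the 85.3% to 90.9% of the distal sites.

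**Figure D4:**
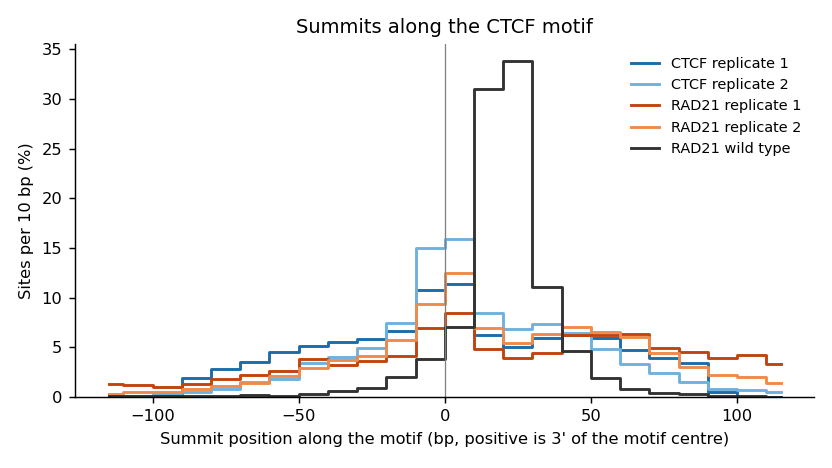
Distance of the summit from the centre of the CTCF motif along the motif (x axis, bp, positive is 3′) against the percentage of distal sites with cohesin per 10 bp (y axis), for each peak list and motifs within 100 bp. The wild-type RAD21 line rises sharply 3′ of the motif, around its median of 20 bp, and the ChIPmentation lines are broad.

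The orientation of neighbouring sites changed with their distance. Sites with a motif within 50 bp were ordered along each autosome and each was set beside the next such site, whether or not other CTCF peaks lay between them. Of 5190 pairs at most 1 Mb apart, 25.3% were convergent, 47.4% tandem (the same way) and 27.3% divergent (pointing apart). The convergent share was close to the background of 24.8% over neighbouring motifs of all autosomal CTCF replicate 1 peaks. Split by distance, convergent pairs made up 5.38% of 502 pairs under 20 kb apart, 16.1% at 20 to 50 kb, 22.0% at 50 to 100 kb, 28.2% at 100 to 200 kb, 29.7% at 200 to 500 kb and 35.5% of 749 pairs at 500 to 1000 kb. Divergent pairs went the other way, with 40.2%, 40.1%, 34.0%, 23.9%, 21.2% and 19.5%. Neighbouring motifs of all autosomal CTCF replicate 1 peaks, the sites included, showed the same trend, with 17.3%, 21.5%, 24.98%, 29.1%, 29.7% and 34.3% convergent and from 30.4% down to 18.3% divergent. The sites thus stood apart from all peaks mainly under 50 kb, and at 50 to 100 kb in divergent pairs, where all peaks had 26.6%.

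Close neighbours were thus mostly tandem or divergent and rarely convergent. Under 50 kb, 426 of 1060 pairs were divergent (40.2%), against a background of 29.6%, and 117 (11.04%) were convergent, against 19.3% of all peaks. Divergent pairs outnumbered convergent ones on 19 of 19 autosomes, both at the sites and over all peaks. When the sites were chosen with RAD21 replicate 1 in place of replicate 2, 3 of 130 such pairs (2.31%) were convergent and 52.3% divergent. At 200 kb or more, 31.6% were convergent and 20.7% divergent, and convergent pairs led on 17 of 19 autosomes, close to the 30.9% and 20.0% of all peaks. Distal CTCF sites without a RAD21 peak did not share this order. Their 237 pairs under 50 kb were 27.4% convergent and 19.8% divergent, and divergent pairs led on 4 of 19 autosomes. At 200 kb or more they were 24.8% and 24.7%. With motifs within 100 bp, the distal sites with cohesin had 10.2% convergent and 40.4% divergent pairs under 50 kb, and 38.0% and 18.4% at 200 kb or more.

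**Figure D5:**
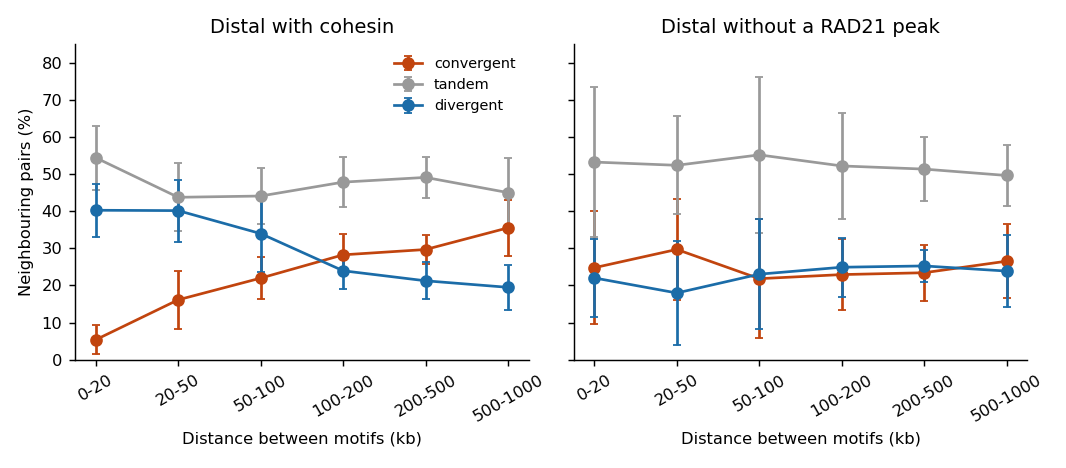
Percentage of neighbouring pairs (y axis) that are convergent, tandem or divergent, by distance between their motifs (x axis, kb), at distal CTCF sites with cohesin (left) and without a RAD21 peak (right). Points are shares of all pairs in the class and bars the SD over autosomes with at least 5 pairs, and on the left the convergent line climbs from 5.38% to 35.5% and crosses the divergent line between 50 and 200 kb.

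An example of each kind is shown by its motifs with 10 bp on either side. They are the pair under 20 kb apart for divergent, and over 200 kb for convergent, whose weaker site had the highest mean fold rank. In a divergent pair the left motif is on the minus strand, and in a convergent pair on the plus strand.
divergent, left, chr15:28182175-28182213, minus strand: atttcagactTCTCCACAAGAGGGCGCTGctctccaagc
divergent, right, chr15:28188198-28188236, plus strand: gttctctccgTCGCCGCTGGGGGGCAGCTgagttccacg
convergent, left, chr4:114665837-114665875, plus strand: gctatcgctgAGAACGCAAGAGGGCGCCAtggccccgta
convergent, right, chr4:114947589-114947627, minus strand: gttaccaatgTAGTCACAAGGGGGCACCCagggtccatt
The divergent pair lies 6023 bp apart between intergenic sites whose nearest gene is Dnah5, an axonemal dynein. Ranked within each list, its left site stood at percentiles of 84.0 and 85.1 in the CTCF replicates and 95.8, 95.7 and 99.4 in RAD21 replicate 1, replicate 2 and wild type, and its right site at 97 and 96.1, and 84.6, 82.5 and 92.5. The convergent pair lies 281752 bp apart, with its right site 21614 bp from Foxe3, a forkhead factor of the lens. Its left site had CTCF folds of 10.56 and 14.76 and RAD21 folds of 7.40, 14.13 and 11.40, and its right site 10.33 and 12.19, and 7.34, 12.41 and 8.61. All 4 sites were thus above the medians of the 4 lists of the choice. A chromatin contact between them was not measured here.

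The sites were spread over the genome with a median gap of 105.7 kb between neighbours, from 38.2 kb at the lower to 246.4 kb at the upper quartile. Their density ran from 3.4 per Mb on chromosome 14 to 6.18 per Mb on chromosome 11. By place, 48.1% were intergenic, 39.9% lay in introns, 5.71% in exons and 6.29% in long non-coding RNA genes. At distal CTCF sites without a RAD21 peak these were 39.6%, 45.5%, 9.58% and 5.28%. The median distance to a protein-coding gene start was 30.3 kb, against 23.2 kb without a RAD21 peak. Distal sites with cohesin thus lay farther from genes and less often in exons, as a description.

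Base composition was close to that of the distal sites without a RAD21 peak. GC content over 301 bp had a median of 47.8%, with 48.5% at distal sites without a RAD21 peak and 56.8% at CTCF sites with cohesin within 1 kb of a gene start. The observed over expected frequency of CpG, which is high in CpG islands, was 0.251 at the distal sites with cohesin and 0.594 near gene starts. Other short motifs were sought on both strands within 150 bp of the summit. The GC box and the E-box were more frequent than in the flanks, and AP-1 and the homeodomain core slightly less frequent. AP-1 (TGANTCA) was in 7.53% of the sites and 7.96% of the flanks, the homeodomain core TAATTA in 6.55% and 7.81%, and the E-box CANCTG in 60.4% and 55.6%. The GC box GGGCGG was in 8.58% against 5.21%, and in 37.5% near gene starts. Over all autosomal CTCF replicate 1 peaks the shares were 7.59%, 6.41%, 60.4% and 11.8% in the same order, so the distal sites with cohesin were close to all CTCF peaks for the other motifs and below them for the GC box.

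Limb genes often had such a site as a neighbour. Of 59 limb patterning genes, 38 (64.4%) were the nearest protein-coding gene of at least 1 site, against 32.8% of all 20780 autosomal protein-coding genes. For 21 genes of limb cartilage, muscle and skin it was 52.4%, for 17 genes of liver and blood 47.1%, for 13 neural genes 46.2% and for 14 genes of the cohesin and CTCF machinery 28.6%. Lists of other tissues were thus above the background as well. The share nearest to any autosomal CTCF replicate 1 peak was also above that of all genes for these lists other than the machinery, at 83.1%, 71.4%, 64.7%, 84.6% and 50.0% in the same order and 53.4% of all genes. The part of gene spacing in these shares was not tested. Sox9, the master factor of cartilage, was the nearest gene of 7 sites and Fmn1, next to the BMP antagonist gene Grem1, of 5, and the most, 9, fell to the axon guidance receptor gene Robo1.

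Within 20 kb of the gene start, 27 of the 59 limb patterning genes (45.8%) had a site, against 24.5% of all genes. Lists of other tissues, and any CTCF peak, were not counted at this distance, so whether the share is particular to limb genes or to these sites was not tested. These 27 genes had 23 different sites, since some neighbouring genes share a site. Of the 23, 7 had a RAD21 replicate 1 peak, against 32.4% of all the sites. The site 15916 bp downstream of the start of Shh, the signal that patterns the limb from thumb to little finger, had the highest RAD21 folds of the 23 in RAD21 replicate 2 and wild-type RAD21. Its folds were 9.0 and 17.61 in the CTCF replicates, 10.60 and 12.69 in RAD21 replicates 1 and 2, and 10.19 in wild-type RAD21. Upstream of Lmbr1, the gene that holds the limb enhancer of Shh in an intron, a site at 11176 bp had folds of 11.80, 12.76, 5.52, 11 and 8.72 in the same order. Both sites had a motif on the plus strand, and all 5 lists had a peak there.

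At the Hox clusters, which order the limb from shoulder to digits, values were mixed. The site 1876 bp upstream of Hoxd12 had CTCF folds of 10.52 and 17.33 and RAD21 folds of 5.66, 8.97 and 5.18 in replicate 1, replicate 2 and wild type. The site 3769 bp downstream of the Hoxa13 start had 4.99 and 7.71 for CTCF, no RAD21 replicate 1 peak, 9.59 in RAD21 replicate 2 and 7.23 in wild type. Its CTCF folds stood at percentiles of 16.1 in replicate 1 and 50.9 in replicate 2, and its RAD21 folds at 78.1 and 80.3 in replicate 2 and wild type. At Hoxd12 the CTCF percentiles were 96.2 and 99.7, and those of RAD21 32.8, 72.0 and 58.4 in replicate 1, replicate 2 and wild type.

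Genes of retinoic acid, Wnt and ephrin signalling also had near sites. Aldh1a2, which makes retinoic acid, had a site 4686 bp upstream with folds of 9.14 and 7.47 for CTCF and 7.56, 9.87 and 7.05 for RAD21 replicate 1, replicate 2 and wild type. Cyp26b1, which breaks it down, had an intronic site at 3477 bp with 8.75 and 12.59 for CTCF, no RAD21 replicate 1 peak, and 12.62 and 7.93 for RAD21 replicate 2 and wild type. Epha4, an ephrin receptor gene, had one 1397 bp upstream with 11.05 and 8.63, and 6.16, 5.91 and 7.18. The site in an intron of Wnt5a, a signal for limb outgrowth, had CTCF folds of 5.80 and 15.78 in replicates 1 and 2, percentiles of 34.4 and 99.1. The CTCF replicates therefore ranked this site far apart.

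Among the genes of the machinery itself, 3 of 14 (21.4%) had a site within 20 kb of the start, near the 24.5% of all genes. They were Ctcf, Pds5a, which codes for a regulator of cohesin release, and Esco2, a cohesin acetyltransferase. The site 14027 bp upstream of Ctcf had CTCF folds of 7.56 and 12.10 and RAD21 folds of 5.73 in replicate 2 and 7.25 in wild type. None of the 3 had a RAD21 replicate 1 peak.

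Region CS38-40 and the stretch of chromosome 10 taken as its host domain held 8 of the sites. CS38 was among them (chr2:75137871-75138292), and in these embryos its reads come from the relocated copies, since the region is deleted from both copies of chromosome 2, whereas the wild-type list reads the native locus. Its folds were 10.00 and 10.97 for CTCF and 5.44, 9.90 and 7.55 for RAD21 replicate 1, replicate 2 and wild type, percentiles of 94.1, 84.4, 26.1, 80.9 and 83.0. The line carries an additional partial copy that includes CS38, and its part in the fold was not tested. The stretch of chromosome 10 held 7 sites, and 3 of them had a RAD21 replicate 1 peak. Its right limit is given in the paper on the custom genome, which holds the insertion, but was applied here to mm10. On mm10 the stretch therefore runs past the right border of the domain by the length of the insertion. The last 3 sites, from 97339834 on, lie in that excess. Of the sites inside the domain, only site 1 had a RAD21 replicate 1 peak. Along the chromosome the motifs of the 7 sites lay on the plus strand once, on the minus strand at the next 4 and on the plus strand at the last pair. Inside the domain they lay on the plus strand at site 1 and on the minus strand at the other sites. The motifs of CS38 and of sites 1, 4 and 7 of the stretch, counted along the chromosome, are shown, since the orientation of a relocated motif is read against those around it. Sites 1 and 4 lie inside the domain. Site 7, although labelled host domain below, lies past its right border.
CS38, chr2:75138047-75138145, minus strand: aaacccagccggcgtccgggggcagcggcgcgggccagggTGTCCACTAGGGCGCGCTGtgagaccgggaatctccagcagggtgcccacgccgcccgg
host domain, site 1, chr10:96132276-96132334, plus strand: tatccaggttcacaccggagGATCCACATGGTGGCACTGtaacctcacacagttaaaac
host domain, site 4, chr10:97313115-97313173, minus strand: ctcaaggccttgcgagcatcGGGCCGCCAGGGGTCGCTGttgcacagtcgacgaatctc
host domain, site 7, chr10:97375963-97376021, plus strand: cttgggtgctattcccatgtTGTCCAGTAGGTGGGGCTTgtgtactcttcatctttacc
Site 1 had CTCF folds of 6.70 and 8.14 and RAD21 folds of 4.58, 8.24 and 6.30 in replicate 1, replicate 2 and wild type. Site 4 had 7.82 and 12.26 for CTCF, no RAD21 replicate 1 peak, and 10.42 and 6.81. Site 7 had 10.33 and 10.43, and 7.72, 9.14 and 9.30. The host locus was hemizygous, so these folds mix the carrier and the wild-type chromosome 10.

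Some sites ranked very differently in RAD21 replicate 2 of the transgenic limbs and in wild-type RAD21, with both lists used in the choice. The widest gaps toward the transgenic list were 74.0 percentile points in an intron of Ntng2, 71.5 near Mup16 and 71.1 near Slc7a10. At Ntng2 the folds were 5.84 and 9.53 for CTCF, and 5.55, 10.35 and 2.70 for RAD21 replicate 1, replicate 2 and wild type. Near Mup16, in a family of near-identical urinary protein genes, the CTCF folds of 19.17 and 20.21 were among the 10 highest of each list, and RAD21 stood at 14.43 in replicate 2 and 3.36 in wild type, with no replicate 1 peak. How reads of near-identical copies were placed there was not tested. The widest gaps the other way were -82.6 points in an intron of Fry and -80.8 near Spry2, an inhibitor of growth factor signalling. At Spry2 the folds were 10.96 and 9.39 for CTCF, 3.84 in RAD21 replicate 2 and 7.33 in wild type. Protocol and genotype differ together between the lists and cannot be told apart, and with no wild-type replicate these gaps carry no test.

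Mapping to the custom genome, which holds the insertion, left the sites mostly in place. On the autosomes other than chromosomes 2 and 10, 9071 of 9148 sites (99.2%) kept a CTCF replicate 1 peak, 99.7% a CTCF replicate 2 peak and 96.5% a RAD21 replicate 2 peak. For RAD21 replicate 1, 82.2% of the 2971 sites with a peak kept it, and 202 others gained one. The smallest list was thus the least stable.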

How the data were processed

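Chromatin bound by CTCF or RAD21 was profiled by ChIPmentation in limbs of the transgenic embryos. Replicates were taken from the list names, and each antibody is 1 sample in the labels. Input samples had no peak list used here. Tools named in the notes of the submitters were MACS2 2.1.1.20160309, Picard 2.19, SAMtools 1.9, cutadapt 1.16 and Bowtie2 (2.3.5 and 2.3.4.1), with build mm10. The authors called peaks on each replicate with MACS2, without pooling, up to a q-value of 0.05. The deposited lists give, for each peak, the fold (a ratio) over the local expectation, the −log10 p-value, the −log10 q-value and the summit offset. The controls and read numbers behind the deposited lists are not given in the sources used here, so depth is unknown. The wild-type RAD21 list holds the authors' values for 1 library of an earlier study, with no SD.

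Lists mapped to mm10 were used, and those mapped to the custom genome, which kept all reads, served as an alternative. Gene starts were the gene records of GENCODE, and soft-masking was that of the RefSeq GRCm38 sequence, which may differ from the masking of other mm10 files. Overlap was at least 1 bp. A motif of 19 bp was learned by expectation maximisation from the 2000 strongest CTCF replicate 2 peaks outside the sites described, on autosomes and under 50% masked, and sought on both strands within 50 bp of the CTCF replicate 1 summit. A match needed the score that 5% of flanks reach. Base composition was taken over 301 bp. Neighbours were adjacent sites with motifs at most 1 Mb apart. The programs were tested on simulated data. Named sites were the 10 of highest and 5 of lowest mean percentile of fold over the 4 lists of the choice. Also named were those nearest to the limits of the choice, and those in region CS38-40, around the host domain and in the stretch with most sites. The rest were the 5 of highest motif score, the 5 of widest RAD21 percentile gap in each direction, listed genes within 20 kb, and the pairs shown. The members and lists were chosen with earlier results of these data known. Tables were made with pandas 2.3.3 and numpy 2.4.6, sequences read with samtools 1.23.1 and pysam 0.24.0, correlations computed with scipy 1.17.1 and plots drawn with matplotlib 3.10.9, under Python 3.11.15. With 2 replicates per antibody and peaks that are not replicates, shares and medians carry no test.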

Additional observations from a re-analysis of the deposited data

How the results depend on the processing

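The number of sites was 10520 and fell to 3059 when every peak needed a −log10 q of at least 10, and leaving out 1 replicate in turn gave 3449 to 11326, with 3449 when RAD21 replicate 1 stood in for replicate 2. The share with a RAD21 replicate 1 peak was 32.4%, and became 5.95% at that q limit, 22.4% with a reciprocal overlap of 50%, 31.4% without the wild-type RAD21 list, 29.8% with the custom genome lists and 30.93% to 31.95% with 1 replicate left out. The share with a motif was 54.9%, and became 46.4% at the score that 1% of flanks reach, 85.8% within 100 bp, 91.2% within 150 bp, 62.2% at the q limit, 56.9% with reciprocal overlap and 54.65% to 72.09% with 1 replicate left out, the highest when summits came from CTCF replicate 2. The RAD21 replicate 1 summit lay 20 bp 3′ of the motif, and 26 bp with motifs within 100 bp and 28 bp within 150 bp. It lay at 26 bp at the q limit, 14 bp with reciprocal overlap and 20 to 23 bp with 1 replicate left out. RAD21 replicate 2 moved by less than 5.66 bp, which is only the SD of the medians of the 2 RAD21 replicates. Wild-type RAD21 stayed at 20 bp in every setting. The convergent share was 25.3%, and 26.6% within 100 bp, 26.5% within 150 bp, 20.4% for neighbours within 200 kb and 23.79% to 26.14% with 1 replicate left out. The 24.8% of all peaks was for motifs within 50 bp and neighbours at most 1 Mb apart, and it was 24.9% for motifs within 100 bp. With motifs within 50 bp and that distance, the convergent share lay on either side of 24.8%, at 24.7% for sites over 5 kb from gene starts. No background was computed for neighbours within 200 kb, for motifs within 150 bp or at the q limit. Under 50 kb, convergent pairs (11.04%) became 7.38% at the q limit, 8.59% over 5 kb from gene starts and 2.31% without RAD21 replicate 2, and divergent pairs (40.2%) 49.2% at the q limit and 52.3% without RAD21 replicate 2. At 200 kb or more, convergent pairs (31.6%) became 27.8% at the q limit and 28.3% without RAD21 replicate 2. They became 36.3% without CTCF replicate 1, and 38.0% and 38.4% with motifs within 100 and 150 bp. These values lay on either side of the 30.9% of all peaks with motifs within 50 bp. The cause of each move was not tested. The window of 150 bp was chosen after seeing the data. No paired analysis was possible because the lists come from different antibodies and no result comes from a test.

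Read numbers behind the lists are unknown, and RAD21 replicate 1 was the shortest list. The motif and pair results rest on the sites with a match near the summit.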
